A study of Mus musculus with 48 samples.

Results

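The comparison described here is the interaction of diet with sidestream smoke in mouse lung, that is, the smoke response of obese animals minus the smoke response of regular weight animals, taken gene by gene. Of the 48 arrays in the series, 32 entered it, with 1 whole lung and 1 Affymetrix array per animal and 8 animals in each of 4 groups. All animals were male C57BL/6 mice, 15 weeks old when exposure began, and breathed through the nose alone for 5 hours a day on 8 days within 2 weeks. DIO-SS are obese animals in sidestream smoke, the smoke that leaves the burning tip of a cigarette, and DIO-SC are obese animals in filtered air. RW-SS are regular weight animals in sidestream smoke, and RW-SC are regular weight animals in filtered air. The diet of obese animals was D12492, which holds 60 kcal% fat. It was given from an age of 6 weeks, which made 9 weeks before the first exposure. Regular weight animals ate PMI 5002, a different product with about 5 kcal% fat, so the effects of fat, of other ingredients and of body weight cannot be told apart. The diet text also speaks of an LPS exposure lasting 4 days, and whether any of these animals received LPS is not given in the sources used here. Necropsy followed on the day after the last exposure, and its hour is not given in the sources used here.

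Values are log2 signals summarized by the authors with RMA, so a difference of 1 is a doubling. The interaction is (DIO-SS minus DIO-SC) minus (RW-SS minus RW-SC), and "higher" for an interaction means that the obese response lay above the regular weight response. A gene was called where limma's p, adjusted by Benjamini-Hochberg over 12393 genes with 1 probe set each, lay below 0.05. Errors after ± are standard errors of limma's log2 differences, except where SD is named. "Beyond" counts the animals of a group that lay outside the whole range of the other group on the side of the change.

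Several of the genes below belong to systems with known inputs. The aryl hydrocarbon receptor is a transcription factor that binds planar aromatic molecules, among them those of tobacco smoke and some plant constituents of food, and Cyp1a1, a monooxygenase that oxidizes such molecules, is its best known target. Heat shock factor drives chaperone genes when proteins unfold, the glucocorticoid receptor drives genes such as Fkbp5 and Zbtb16 in response to adrenal hormones, and the circadian clock sets a daily rhythm in Dbp and Nr1d1. B cells are lymphocytes that enter the lung from blood and gather along its airways and vessels.

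The 8 genes fixed as marks of lung tissue were bright, from 9.28 for Foxj1, of ciliated cells, to 15.17 for the club cell secretoglobin Scgb1a1 (mean log2 signal over 32 arrays). Arrays DIO-SC-3, DIO-SC-7 and RW-SS-6 stood apart, with mean correlations to the arrays of their own group of 0.954 to 0.979, against 0.986 or more for the other 29. A marker score is the mean deviation of the markers from their mean over arrays. The skeletal muscle score of DIO-SC-3 was 4.58 and the next highest score of its group 0.39. DIO-SC-3 also had a squamous epithelium score of 4.83 and a brown fat score of 2.02. DIO-SC-7 had a thymocyte score of 4.44, against 0.12 for the next of its group, and a brown fat score of 3.71. RW-SS-6 had a brown fat score of 3.76, against 0.01 for the next of its own group. The main counts and the counts of the lists described at length are therefore also given without them.

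The sidestream response differed between the diet groups for 92 genes, which is 0.742% of the genes tested. The obese response lay above the regular weight response for 58 of them (0.468% of all genes) and below it for 34 (0.274%). The absolute interaction ranged from 0.23 to 3.84 with a median of 0.60, and it was at least 1 for 13 genes. Over all genes the median interaction was 0.03. Without the 3 arrays that stood apart, 140 genes were called (1.13%), 69 higher (0.557%) and 71 lower (0.573%). Of the 92 genes, 70 were called with the same sign in that fit (0.565% of all genes), 39 higher and 31 lower, while 22 lost their call and 70 other genes gained one. No single array decided the call of 58 of the 92 genes, which were called in each of 32 fits that left out 1 animal.

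For most interacting genes the diets differed in air and not detectably in smoke. The diet difference, obese minus regular weight, was called in sidestream smoke for 95 genes (0.767%), 61 higher (0.492%) and 34 lower (0.274%) in obese animals. That count was 333 without the 3 arrays (2.69%, 177 higher and 156 lower), 298 without DIO-SC-7 alone and 54 without RW-SS-8. In air it was called for 1012 genes (8.17%), 235 higher (1.9%) and 777 lower (6.27%). Without the 3 arrays it was called in air for 1152 (9.3%), 397 higher and 755 lower. Of the 92 interacting genes, 14 were called for the smoke difference only, 66 for the air difference only, 5 for both with the same sign, 1 for both with opposite signs and 6 for neither. Without the 3 arrays the 140 called genes fell into 22, 99, 6, 10 and 3 in the same order of classes. A difference that was not called in smoke does not show that the diets were equal there, and the diet differences share samples with the interaction. The absolute smoke difference was the larger for 22 genes and the absolute air difference for 70. Their medians over the 92 genes were 0.19 in smoke and 0.41 in air, beside 0.06 in smoke and 0.09 in air over all genes. Of the 70 genes called with and without the 3 arrays, 64 kept their class and 6 changed it, namely Wnt5a, Vav3, Dnaja1, Tsc22d3, Klf15 and Fkbp5.

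**Figure D1:**
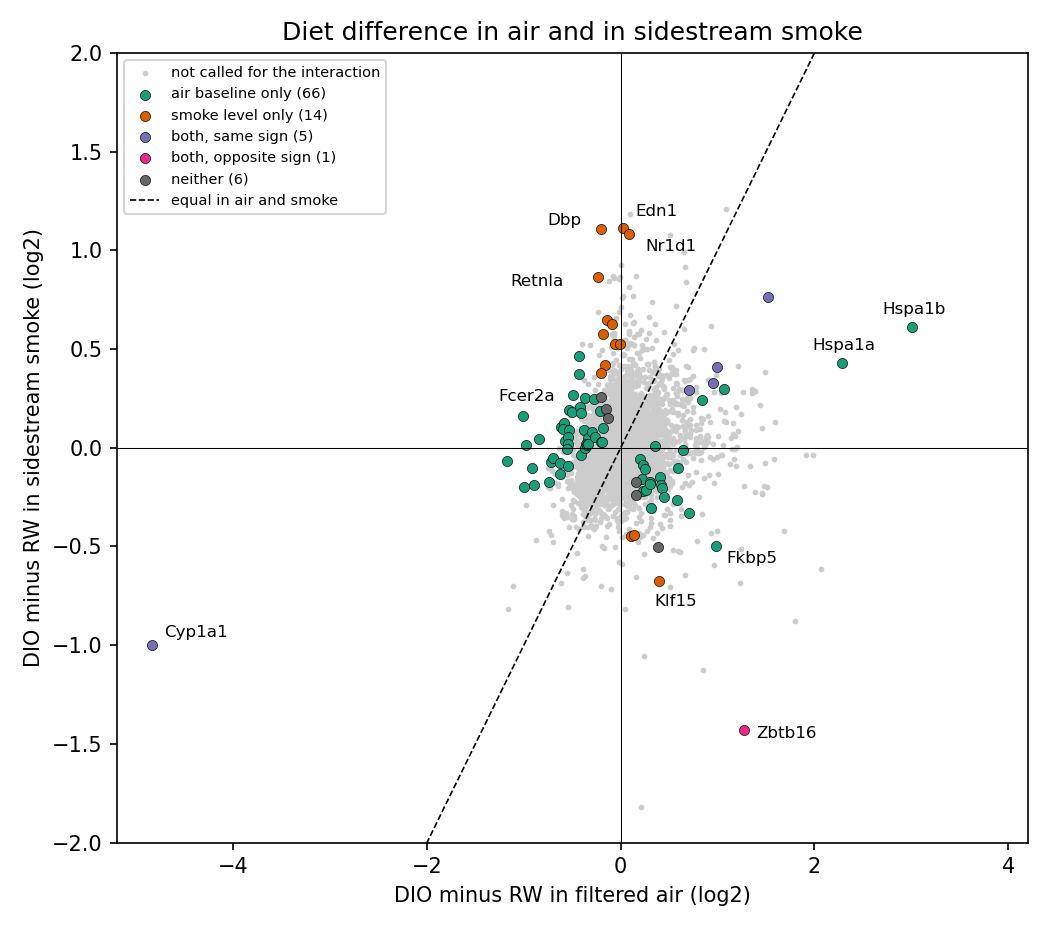
Diet difference (DIO minus RW, log2) in filtered air on the horizontal axis and in sidestream smoke on the vertical axis, with 1 point per gene and the axes on different scales. Grey points are genes not called for the interaction, coloured points are the 92 called genes by class, and the dashed line marks equal differences; Cyp1a1 lies at -0.999 in smoke and -4.84 in air, while Dbp and Nr1d1 lie above 1 in smoke and near 0 in air.

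The direction of the air difference was nearly the reverse of the interaction. Of the 58 genes with a higher obese response, 56 were lower in obese animals in air, 44 of them by a call. All 34 genes with a lower obese response were higher in obese animals in air, 28 of them by a call. This count is partly fixed by the arithmetic, because the air difference enters the interaction with a negative sign. The response itself was called in obese animals only for 48 of the 92 genes, in regular weight animals only for 26, in both for 8 and in neither for 10. Over the 140 genes called without the 3 arrays, these counts were 82, 41, 11 and 6. Over all genes, the sidestream response was called for 768 genes in obese animals (6.2%), 492 higher (3.97%) and 276 lower (2.23%) in smoke. In regular weight animals it was called for 224 genes (1.81%), 77 higher (0.621%) and 147 lower (1.19%). Without the 3 arrays the response was called for 1088 genes in obese animals (8.78%), 551 higher and 537 lower. In regular weight animals it was then called for 577 (4.66%), 205 higher and 372 lower. The regular weight count was 606 without DIO-SC-7 alone and 146 without RW-SC-3.

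**Figure D2:**
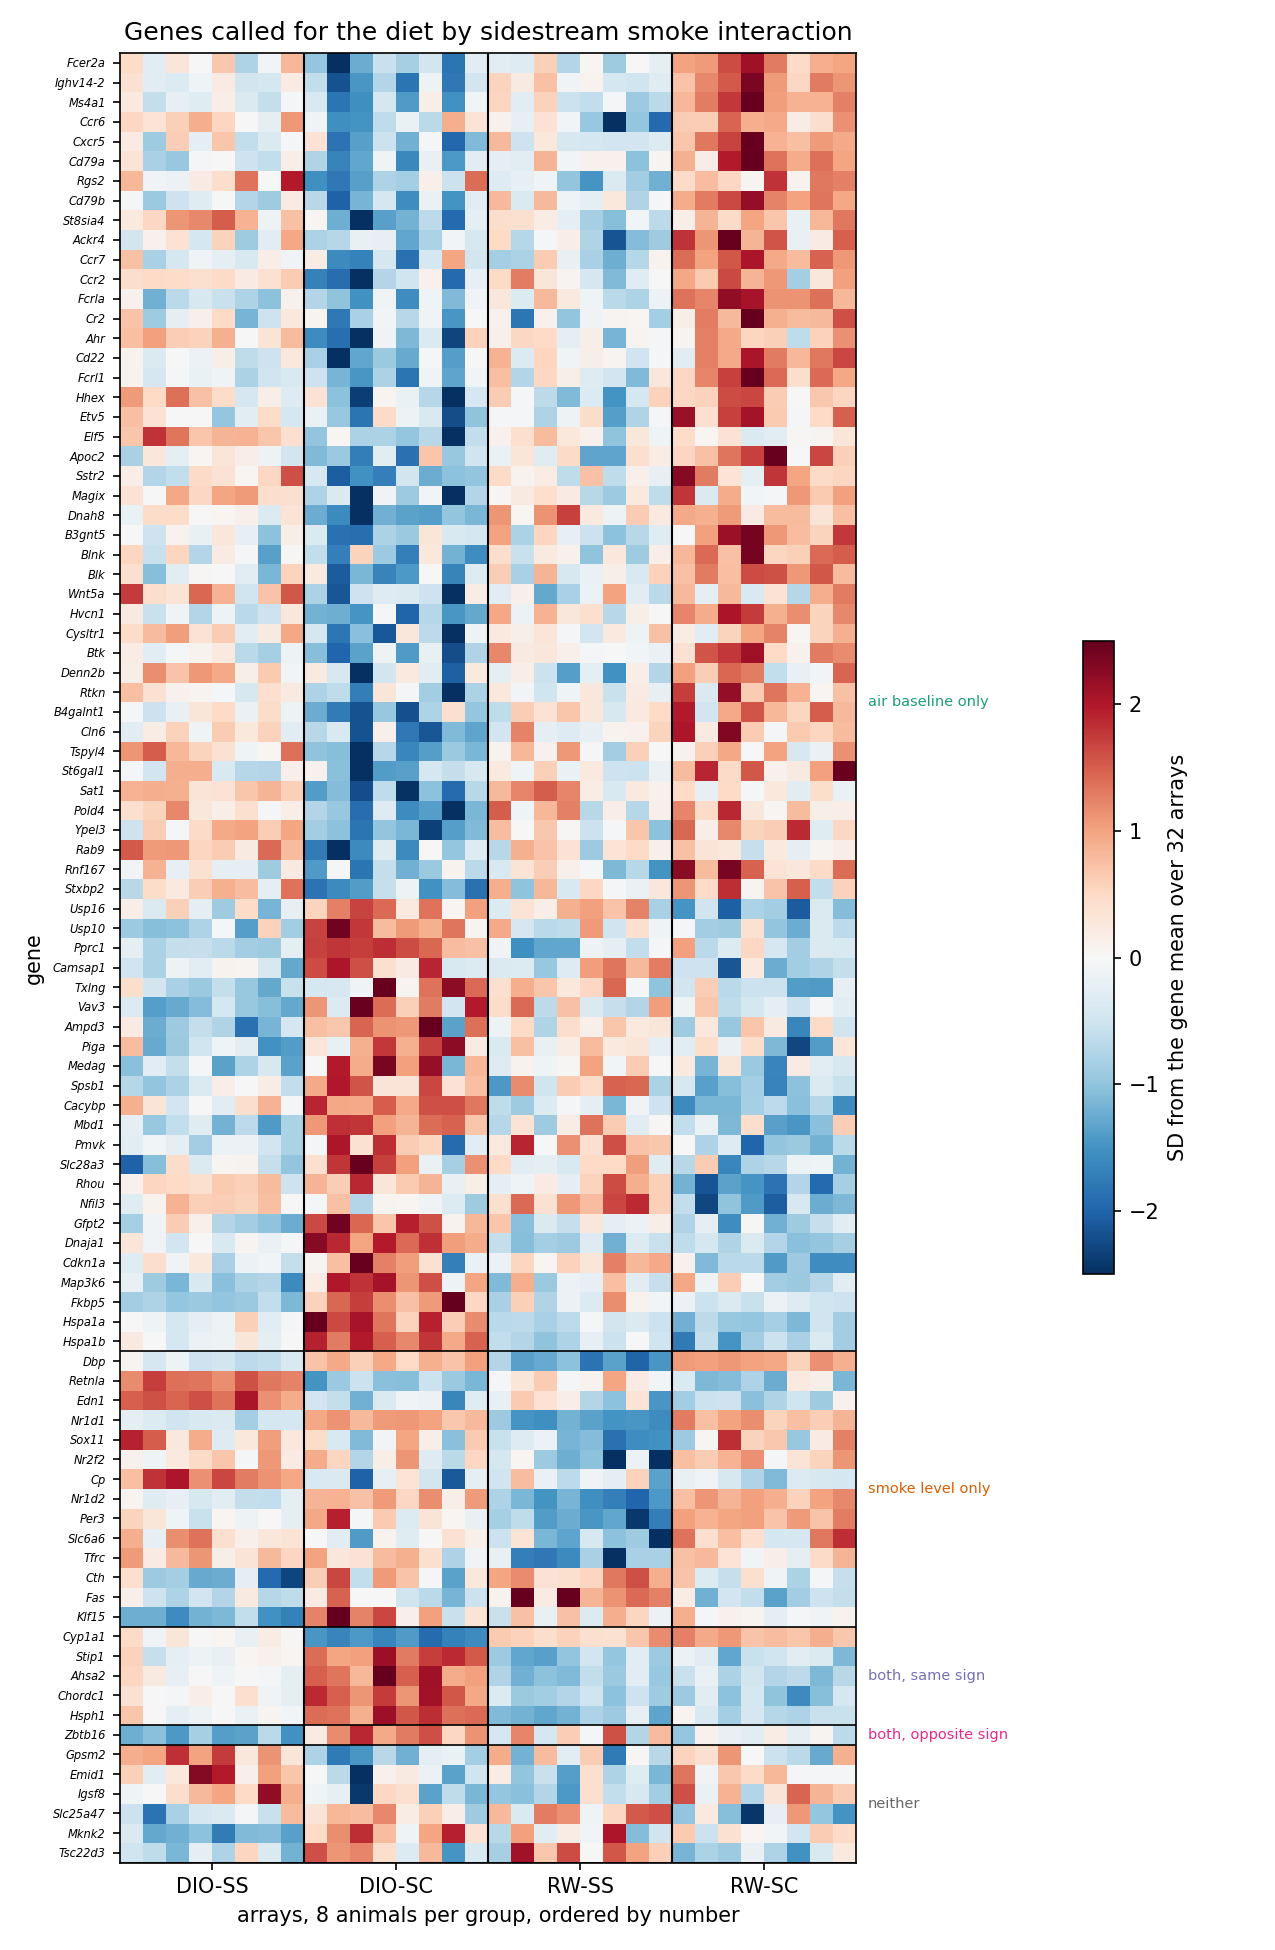
Signal of the 92 interacting genes (rows, by class and then by interaction) in 32 arrays (columns, DIO-SS, DIO-SC, RW-SS and RW-SC from left to right), as standard deviations from the mean of each gene over the 32 arrays. In the class of smoke differences the DIO-SS and RW-SS columns differ, and in the class of air differences the DIO-SC and RW-SC columns do. The colours need not be opposite. On average Dbp and Nr1d1 lie below their mean in both smoke groups, and Retnla lies above its mean in both.

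Cyp1a1 had the largest interaction among the 92 called genes. Its log2 signal (lowest, median and highest animal) was 7.51, 7.93 and 8.78 in DIO-SS and 4.09, 4.73 and 5.10 in DIO-SC. In regular weight animals it was 8.59, 8.98 and 10.14 in RW-SS and 9.16, 9.50 and 10.32 in RW-SC. The DIO-SC lungs formed a low group of their own, and both regular weight groups and DIO-SS lay well above it. In obese animals smoke raised it by 3.31 ± 0.20, or 9.91-fold (limma, adjusted p = 5.5e-13). In regular weight animals the difference was -0.53 ± 0.20 (adjusted p = 0.17). The interaction was 3.84 ± 0.28 (95% interval 3.27 to 4.42, adjusted p = 1.3e-10) and 3.80 without the 3 arrays. In sidestream smoke the diet difference was -0.999 ± 0.20 (adjusted p = 0.0096), with 7 of 8 obese animals beyond. In air it was -4.84 ± 0.20, a 28.6-fold lower level in obese animals (adjusted p = 8.7e-18), with 8 of 8 beyond. Both the smoke level and the baseline differed, and the smoke difference was the smaller.

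The promoter of Cyp1a1 is shown because the gene has the largest called interaction and its receptor binds a short core, GCGTG, read on both strands. The RefSeq sequence (GRCm38.p6, chr9:57697363-57697662, plus strand, 250 bases before to 50 after the start) holds 1 match, at position -54 from the start, given in capitals. The core occurs in 32.4% of 32851 RefSeq promoters of this length, so the match is a description of the sequence and shows no binding.
Cyp1a1: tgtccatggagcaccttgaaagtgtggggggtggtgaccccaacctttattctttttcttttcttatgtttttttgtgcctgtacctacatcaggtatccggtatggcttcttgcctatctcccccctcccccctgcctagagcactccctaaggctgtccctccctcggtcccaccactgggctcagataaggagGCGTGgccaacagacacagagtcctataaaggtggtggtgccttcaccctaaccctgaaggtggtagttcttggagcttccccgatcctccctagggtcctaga

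Of 8 measured targets of the receptor, Cyp1a1 alone was called for the interaction, and the median of the list was -0.05. Cyp1b1, a related monooxygenase, had an interaction of 0.04 (adjusted p = 0.96), with responses of 0.64 in obese and 0.60 in regular weight animals. The repressor Ahrr stood at 0.10 (adjusted p = 0.85) and Tiparp at -0.05 (adjusted p = 0.88). The receptor gene Ahr, picked after its values were seen, had an interaction of 0.69 ± 0.14 (adjusted p = 0.013). Its diet difference was 0.18 in smoke (adjusted p = 0.60) and -0.50 in air (adjusted p = 0.0015). The 5 genes whose signal over the 32 arrays was most like that of Cyp1a1 by Pearson's r were Dnah8 at 0.864, Zbtb22 at 0.858, Tmem203 at 0.853, the cold-inducible RNA-binding gene Cirbp at 0.846 and Exoc6 at 0.838. These arrays share 4 groups, so the likeness reflects group means as well as animals. Of them, Cirbp was lower in obese animals in both conditions, with diet differences of -0.82 in smoke and -1.16 in air (adjusted p = 2.2e-05 and 2.3e-09), and its interaction of 0.34 ± 0.15 was not called (adjusted p = 0.35).

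Heat shock chaperone genes were lower in obese animals in smoke than in obese animals in air, where their levels were high. Hspa1b, an inducible Hsp70, had signals (lowest, median and highest animal) of 9.30, 9.78 and 10.22 in DIO-SS and 11.02, 11.69 and 12.31 in DIO-SC. The values were 8.61, 9.15 and 9.85 in RW-SS and 7.65, 8.81 and 9.40 in RW-SC. No DIO-SC animal overlapped another group, while DIO-SS and RW-SS overlapped in part. The obese response was -1.94 ± 0.21 (adjusted p = 5.5e-07) and that of regular weight animals 0.46 ± 0.21 (adjusted p = 0.30), which gave an interaction of -2.39 ± 0.30 (adjusted p = 3.6e-05). The diet difference was 0.61 ± 0.21 in smoke (adjusted p = 0.21) and 3.01 ± 0.21 in air, an 8.03-fold difference (adjusted p = 2.9e-11). Its near copy Hspa1a had an interaction of -1.85 ± 0.27 (adjusted p = 3.1e-04), with diet differences of 0.43 in smoke and 2.29 in air. The probe sets of these 2 genes may share signal, so they are not separate evidence.

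Of 17 heat shock genes measured, 6 were called for the interaction, all lower, and 0 were called higher. The median interaction of the list was -0.35. In smoke 5 of the 17 were called higher in obese animals (median 0.30), and in air 16 were (median 0.56). The obese response was called lower for 15 of 17, and no member was called in regular weight animals, whose median response was -0.11. Without the 3 arrays 6 were called lower for the interaction, 9 were called higher in obese animals in smoke and 17 in air, and the response was called lower for 16 in obese and 2 in regular weight animals. The list score lay between -0.10 and 0.16 in DIO-SS and between 0.43 and 0.74 in DIO-SC. It lay between -0.46 and -0.08 in RW-SS and between -0.35 and -0.20 in RW-SC, so the obese groups overlapped neither each other nor RW-SC. Dnaja1, an Hsp40 cochaperone, had an interaction of -0.77 ± 0.12 (adjusted p = 4.1e-04) on an air difference of 1.07. Chordc1, an Hsp90 cochaperone, had -0.63 ± 0.10 (adjusted p = 6.7e-04) and kept a difference of 0.33 in smoke (adjusted p = 0.017). Hsph1, a nucleotide exchange factor of Hsp70, had -0.75 ± 0.17 (adjusted p = 0.024) with diet differences of 0.77 in smoke and 1.52 in air. Stip1, which links Hsp70 to Hsp90, had -0.41 (adjusted p = 0.026), with 0.29 in smoke and 0.71 in air. Ahsa2, a relative of the Hsp90 activator Ahsa1, had -0.59 (adjusted p = 0.016), and Ahsa1 had -0.21 and was not called (adjusted p = 0.30).

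The promoters of 3 called chaperone genes are shown because their members moved together and heat shock factor reads inverted GAA repeats. The motif searched was GAANNTTC, which reads the same on both strands and is given in capitals. It occurs in 7.86% of 32851 RefSeq promoters. It is present in a promoter of 5 of the 6 called members, and of 5 of the 8 members with a promoter sequence among those not called, so it does not separate the called members from the rest. In Hspa1b (chr17:34959189-34959488, minus strand) it begins at position -104, as in Hspa1a, whose promoter differs from it at 4 of 300 bases. In Dnaja1 (chr4:40722218-40722517, plus strand), which has 3 listed promoters, 1 holds it, at position -124. Chordc1 (chr9:18292017-18292316, plus strand) holds 2 matches next to each other. The sequences are from RefSeq, build GRCm38.p6.
Hspa1b: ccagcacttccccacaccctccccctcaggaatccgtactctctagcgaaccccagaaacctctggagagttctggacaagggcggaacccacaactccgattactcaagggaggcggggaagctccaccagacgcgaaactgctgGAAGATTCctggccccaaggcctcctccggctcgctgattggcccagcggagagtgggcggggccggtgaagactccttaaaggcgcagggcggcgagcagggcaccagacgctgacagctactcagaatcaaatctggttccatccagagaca
Dnaja1: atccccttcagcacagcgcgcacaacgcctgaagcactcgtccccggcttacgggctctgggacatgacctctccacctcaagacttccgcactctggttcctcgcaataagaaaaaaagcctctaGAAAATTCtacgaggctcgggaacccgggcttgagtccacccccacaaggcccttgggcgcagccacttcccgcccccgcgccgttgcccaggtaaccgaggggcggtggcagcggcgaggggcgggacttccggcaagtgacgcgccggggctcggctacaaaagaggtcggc
Chordc1: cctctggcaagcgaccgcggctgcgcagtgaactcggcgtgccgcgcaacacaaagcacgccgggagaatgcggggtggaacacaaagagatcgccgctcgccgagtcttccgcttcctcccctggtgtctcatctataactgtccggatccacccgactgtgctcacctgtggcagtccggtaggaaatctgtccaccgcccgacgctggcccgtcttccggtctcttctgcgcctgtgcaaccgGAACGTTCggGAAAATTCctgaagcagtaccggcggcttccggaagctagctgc

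Some targets of the glucocorticoid receptor were among the genes with the lowest obese response relative to regular weight animals. Zbtb16, which encodes the transcription factor PLZF, had signals of 6.47, 6.69 and 7.27 in DIO-SS and 8.10, 9.001 and 9.69 in DIO-SC (lowest, median and highest animal). It had 7.20, 8.18 and 9.42 in RW-SS and 6.99, 7.70 and 8.08 in RW-SC. The order of the diets turned over between air and smoke: obese animals were the lower ones in smoke and the higher ones in air, with 7 and 8 of 8 animals beyond. The diet difference was -1.43 ± 0.25 in smoke (adjusted p = 0.0029) and 1.27 ± 0.25 in air (adjusted p = 0.0014), and the interaction -2.70 ± 0.36 (adjusted p = 6.9e-05). It was the only one of the 92 called in both conditions with opposite signs over 32 arrays. In the fit without the 3 arrays 10 genes were, among them Zbtb16, Fkbp5, Klf15 and Tsc22d3.

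Fkbp5, a cochaperone that restrains the receptor, had 8.46, 8.57 and 8.75 in DIO-SS and 9.40, 9.75 and 11.05 in DIO-SC. It had 8.64, 9.04 and 9.77 in RW-SS and 8.78, 8.86 and 9.03 in RW-SC. All DIO-SC animals lay above the other obese animals and above RW-SC, and the highest was DIO-SC-7, one of the arrays that stood apart. The interaction was -1.49 ± 0.23 (adjusted p = 4.1e-04), and -1.15 without the 3 arrays (adjusted p = 6.0e-06). The diet difference was -0.50 in smoke (adjusted p = 0.15) and 0.99 in air (adjusted p = 1.2e-04), and without the 3 arrays it was -0.40 in smoke (adjusted p = 0.013) and 0.75 in air (adjusted p = 4.2e-06). Klf15, a transcription factor the receptor induces and no member of the list below, had 9.06, 9.28 and 9.55 in DIO-SS and 9.59, 10.36 and 10.99 in DIO-SC, against 9.58, 9.93 and 10.26 in RW-SS and 9.74, 9.85 and 10.25 in RW-SC. Every DIO-SS animal lay below every animal of the other 3 groups. Its interaction was -1.07 ± 0.19 (adjusted p = 0.0025), with a smoke difference of -0.68 (adjusted p = 0.0089) and an air difference of 0.39 (adjusted p = 0.065). The air difference was called without the 3 arrays, at 0.49 (adjusted p = 0.012). Tsc22d3, which encodes the leucine zipper protein GILZ, had an interaction of -0.89 ± 0.20 (adjusted p = 0.022) and was called for neither diet difference, at -0.50 in smoke and 0.39 in air. It was called for both when the 3 arrays were left out, at -0.47 in smoke and 0.45 in air (adjusted p = 0.046 and 0.033).

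Among 18 measured glucocorticoid and restraint stress genes, 4 were called lower for the interaction and 0 higher, with a median of -0.45. The interaction counts without the 3 arrays were the same. In obese animals 1 member was called lower in smoke, and in air 5 were called higher and 1 lower. Without the 3 arrays 4 were called lower in smoke and 6 higher in air. The obese response was called lower for 4 members and higher for 2, and the regular weight response was called higher for 4 and lower for none. The 4 members called for the interaction were Zbtb16, Fkbp5, Tsc22d3 and the cell cycle inhibitor Cdkn1a, which also answers to p53. The interaction of Cdkn1a was -0.85 ± 0.20 (adjusted p = 0.038), and it was called in 13 of the 32 fits that left out 1 animal. Other known targets were not called: Per1 had -0.58 (adjusted p = 0.43), Ddit4 -0.54 (adjusted p = 0.11), Klf9 -0.35 (adjusted p = 0.25), and Sgk1 -0.09 (adjusted p = 0.84). The list score spread most among RW-SS, from -0.33 to 0.48, with RW-SS-6 highest, and lay between -0.28 and 0.01 in DIO-SS. Map3k6, a stress kinase outside this list, had an interaction of -1.03 ± 0.24 (adjusted p = 0.026), and lost its call without RW-SS-6 alone (adjusted p = 0.052).

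**Figure D3:**
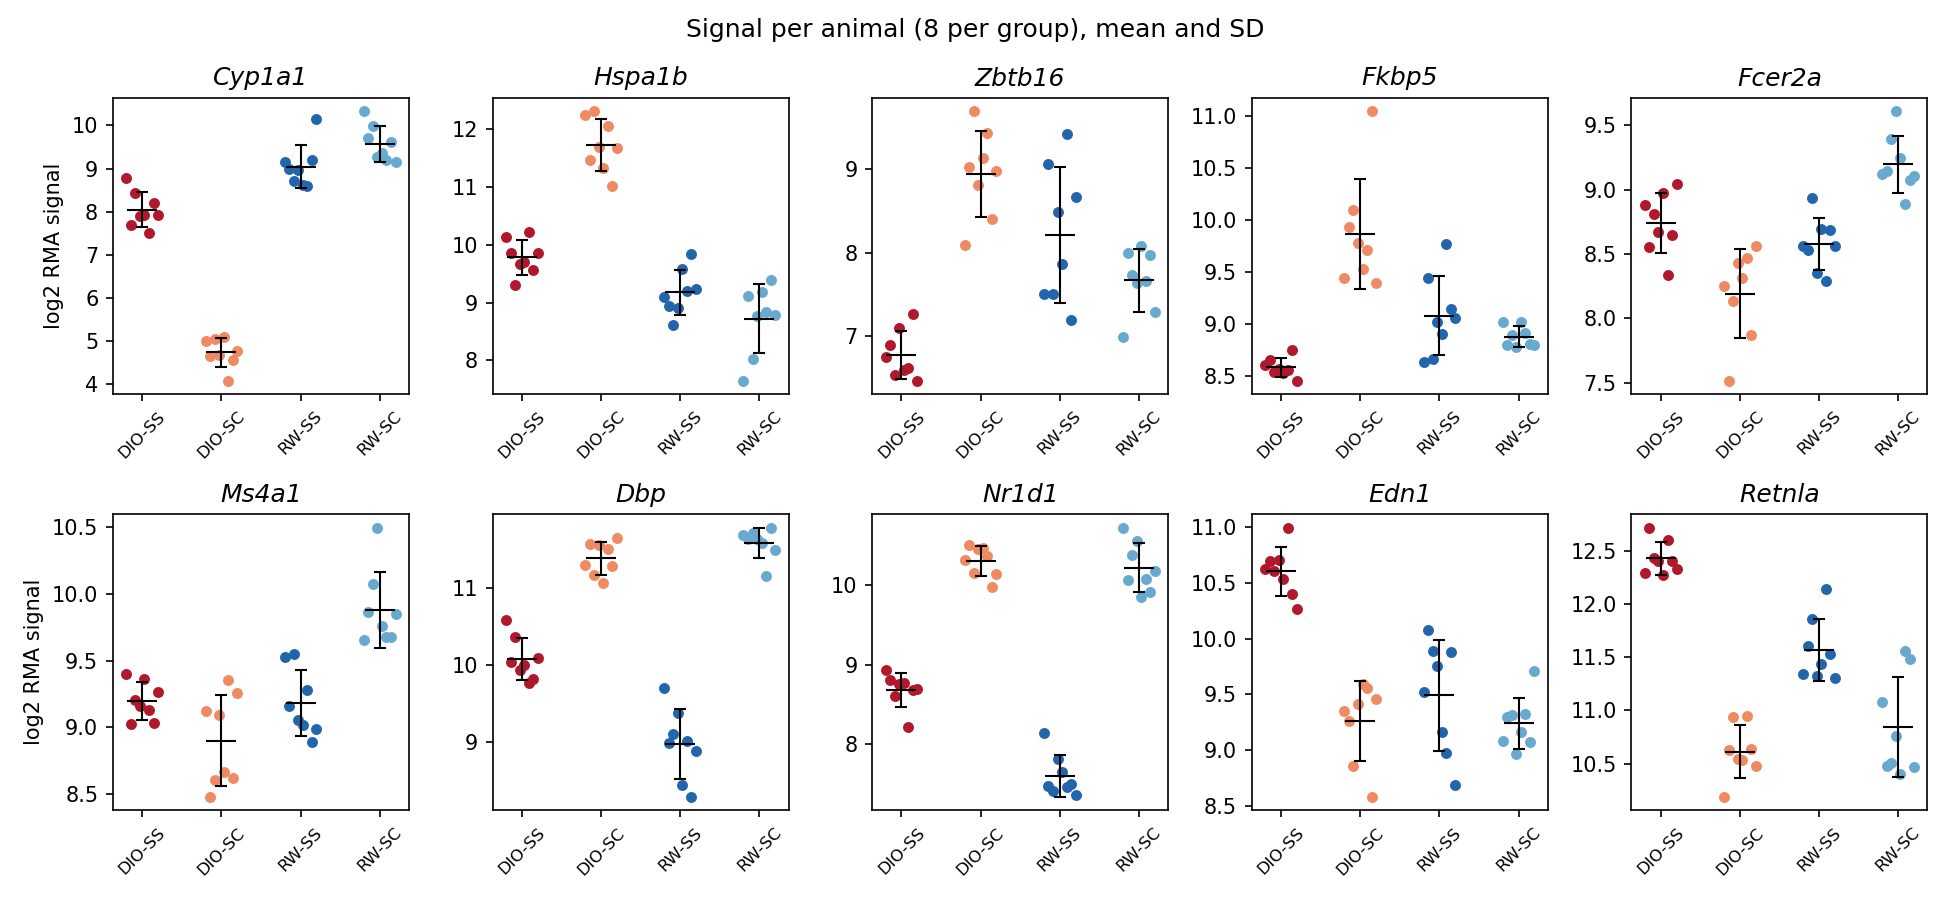
Log2 RMA signal of 10 interacting genes, 1 panel each, with 1 point per animal, DIO-SS, DIO-SC, RW-SS and RW-SC from left to right, and black bars for the mean and SD (n = 8 per group). Cyp1a1 and Hspa1b set DIO-SC apart from the other 3 groups, Fcer2a and Ms4a1 are highest in RW-SC, and Dbp and Nr1d1 are lowest in RW-SS.

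B cell genes had higher obese responses. In air they were lower in obese animals, and in smoke many of them fell in regular weight animals. Fcer2a, the low affinity IgE receptor CD23, had 8.33, 8.74 and 9.04 in DIO-SS and 7.52, 8.28 and 8.56 in DIO-SC (lowest, median and highest animal). It had 8.29, 8.56 and 8.94 in RW-SS and 8.89, 9.13 and 9.61 in RW-SC. All 8 DIO-SC animals lay below RW-SC, and the smoke groups overlapped. Its interaction was 1.17 ± 0.18 (adjusted p = 4.1e-04), made of an obese response of 0.55 (adjusted p = 0.0068) and a regular weight response of -0.62 (adjusted p = 0.0047). Ms4a1, the surface protein CD20, had 9.03, 9.18 and 9.40 in DIO-SS and 8.48, 8.88 and 9.35 in DIO-SC, against 8.89, 9.11 and 9.55 in RW-SS and 9.66, 9.80 and 10.49 in RW-SC. RW-SC stood above the other 3 groups without overlap. The interaction of Ms4a1 was 0.99 ± 0.18 (adjusted p = 0.0032), with diet differences of 0.01 in smoke and -0.98 in air.

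Of 12 measured B cell markers, 8 were called higher for the interaction and 0 lower, and the median was 0.67. Without the 3 arrays 6 were called, and Blk and Cr2 were not (adjusted p = 0.056 and 0.069). In smoke none was called for the diet difference in either direction (median -0.09), and in air 10 of 12 were called lower in obese animals (median -0.70). The obese response was called higher for 1 member, Fcer2a (median 0.20), and the regular weight response was called lower for 7 (median -0.51). With the 3 arrays left out, 11 were called lower in obese animals in air, and the regular weight response was called lower for 10. The list score lay between -0.68 and 0.20 over the other 3 groups and between 0.21 and 0.80 in RW-SC, so RW-SC overlapped none of them. In whole lung, fewer B cells and less RNA per cell cannot be told apart. Pax5 and Ly6d, which mark B cells and, for Ly6d, also squamous epithelium, had interactions of 0.07 and -0.10 and were not called (adjusted p = 0.88 and 0.95).

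The following genes outside the list were named for the size of their interactions or as members of another list. Cxcr5, the receptor that leads B cells into follicles, had an interaction of 0.89 ± 0.17 (adjusted p = 0.0048) and an air difference of -0.85. The immunoglobulin segment Ighv14-2 had 1.11 ± 0.18 (adjusted p = 0.0011) with -1.17 in air. With all arrays the other immunoglobulin segments were not called, for example Igkv6-20 at 0.58 and Igkv6-14 at 0.55 (adjusted p = 0.30 and 0.45). Igkv6-20 and Igkv6-14 were called without the 3 arrays, at 0.82 and 0.78 (adjusted p = 0.011 and 0.046). Their air differences were then -0.71 and -0.92 (adjusted p = 3.4e-04 and 8.6e-05). The chemokine receptor genes Ccr6 and Ccr7 had 0.89 and 0.72 (adjusted p = 0.014 and 0.0081). T cell markers had 0 of 13 called, with a median of -0.21, and 0.23 without the 3 arrays. In the fit without the 3 arrays, 7 of the 13 were called lower in obese animals in air, beside 755 of all 12393 genes. Among 13 genes of MHC class II and dendritic cells, Ccr7 alone was called.

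Some clock genes that peak with Dbp differed by diet in smoke and not detectably in air. The hour of necropsy is not given in the sources used here. For genes with a daily rhythm, a difference in hour between groups cannot be told apart from an effect of smoke or diet. Dbp, a transcription factor with a strong daily rhythm, had 9.77, 10.02 and 10.59 in DIO-SS and 11.07, 11.41 and 11.65 in DIO-SC (lowest, median and highest animal). It had 8.28, 8.999 and 9.70 in RW-SS and 11.15, 11.64 and 11.79 in RW-SC. The air groups overlapped, both smoke groups lay below them, and RW-SS lay below DIO-SS in every animal. The obese response was -1.32 ± 0.15 (adjusted p = 5.5e-07), against -2.62 ± 0.15 in regular weight animals (adjusted p = 2.7e-14). The interaction was 1.31 ± 0.21 (adjusted p = 6.6e-04), and the diet difference was 1.11 ± 0.15 in smoke (adjusted p = 4.2e-05) and -0.20 in air (adjusted p = 0.45). Nr1d1, the repressor REV-ERB alpha, had 8.21, 8.73 and 8.94 in DIO-SS and 9.98, 10.34 and 10.50 in DIO-SC, against 7.36, 7.49 and 8.14 in RW-SS and 9.85, 10.13 and 10.72 in RW-SC. No DIO-SS animal overlapped RW-SS. Its interaction was 1.001 ± 0.17 (adjusted p = 0.0012), with 1.08 in smoke and 0.08 in air.

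Of 12 clock genes that peak with Dbp, 4 were called higher for the interaction and 0 lower, and the same 4 were called higher in obese animals in smoke. The others were Nr1d2 and Per3, with interactions of 0.59 ± 0.10 and 0.59 ± 0.11 (adjusted p = 0.0018 and 0.0046). The median of the list was 0.07, and Cry1, Cry2, Hlf, Per2 and others were not called. None of the 12 was called for the air difference. The response was called lower for 9 in obese animals, and lower for 7 and higher for 1 in regular weight animals. Leaving out the 3 arrays, 4 were again called higher for the interaction, 5 in smoke and 1 in air. Of 6 genes peaking with Bmal1, Nfil3, a repressor that opposes Dbp, was called lower at -0.70 ± 0.15 (adjusted p = 0.015), with responses of 0.22 in obese and 0.92 in regular weight animals. Unlike Dbp, it was called for the diet difference in air, at 0.45 (adjusted p = 0.0073), and not in smoke, at -0.25 (adjusted p = 0.36). Cdkn1a, described above, was the other call. Arntl, which encodes BMAL1, had -0.79 (adjusted p = 0.12). The E-box CACGTG was found in none of the RefSeq promoter windows of Dbp, Nr1d1, Nr1d2 and Per3, and it occurs in 7.15% of all promoters.

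Other genes with a difference in smoke and not in air included an inflammatory product and a vasoconstrictor. Retnla, a secreted protein of alternatively activated macrophages and airway epithelium, had 12.27, 12.40 and 12.72 in DIO-SS and 10.19, 10.58 and 10.94 in DIO-SC (lowest, median and highest animal). It had 11.31, 11.48 and 12.14 in RW-SS and 10.40, 10.64 and 11.56 in RW-SC. Smoke raised it in both diets, and all DIO-SS animals lay above all others. The obese response was 1.82 (adjusted p = 1.0e-09) and the regular weight response 0.73 (adjusted p = 0.0064), with an interaction of 1.10 ± 0.21 (adjusted p = 0.0065). Edn1, the precursor of the vasoconstrictor endothelin, had 10.26, 10.62 and 10.996 in DIO-SS and 8.58, 9.39 and 9.59 in DIO-SC, against 8.69, 9.64 and 10.08 in RW-SS and 8.97, 9.23 and 9.71 in RW-SC. DIO-SS stood above the other 3 groups without overlap. Edn1 rose by 1.35 in obese animals (adjusted p = 3.3e-06) and differed by 0.25 in regular weight animals (adjusted p = 0.49). The interaction of Edn1 was 1.09 ± 0.23 (adjusted p = 0.015) and 0.84 without the 3 arrays (adjusted p = 0.041).

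The iron genes Tfrc, the transferrin receptor, and Cp, the ferroxidase ceruloplasmin, both had higher obese responses. The interaction of Tfrc was 0.54 ± 0.12 (adjusted p = 0.015), and its response was called in regular weight animals only, where it was lower in smoke (adjusted p = 0.0011). That of Cp was 0.71 ± 0.17 (adjusted p = 0.038) and lost its call without the 3 arrays, at 0.52 (adjusted p = 0.056). The death receptor gene Fas and Cth, which makes cysteine, had interactions of -0.58 ± 0.12 and -0.55 ± 0.12 (adjusted p = 0.015 and 0.014), with lower levels in obese animals in smoke. The transcription factor genes Sox11 and Nr2f2, also of this class, had 0.79 and 0.75, and without the 3 arrays 0.62 and 0.55 (adjusted p = 0.13 and 0.10). Among air-class genes, the complement receptor Cr2, the type 2 cell factor Etv5 and the lipoprotein gene Apoc2 had 0.69, 0.62 and 0.61, and their calls were likewise lost (adjusted p = 0.069, 0.067 and 0.082). Etv5 lost its call without RW-SS-6 alone (adjusted p = 0.050). In the 32 fits that left out 1 animal, the call was lost in 22 for Sox11 and 24 for Nr2f2. It was lost in 21 for Cr2, 15 for Cp and 14 for Apoc2.

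Several lists of inflammation and oxidant defence had no called member, which at 0.742% of all genes called is no result about lists of their size. There were 0 of 28 chemokines and cytokines (median 0.03), 0 of 20 NRF2 targets (median -0.05), 0 of 16 neutrophil markers and 0 of 23 interferon response genes. The lowest p among chemokines belonged to Ccl6, at 0.40 ± 0.15 (adjusted p = 0.26), and among NRF2 targets to Pgd, at -0.23 ± 0.09 (adjusted p = 0.27). Of 20 acute phase genes, Cp alone was called. For some lists the median depended on the 3 arrays. Adipocyte markers had a median of -1.11, and -0.21 without the 3 arrays (0 of 14 called), and skeletal muscle markers had -0.84 and -0.09 (0 of 19 called). Cardiac muscle markers had -0.49 and -0.23, and 3 cold-inducible genes had 0.34 and 0.35, with no call. Of 30 cell cycle genes, 0 were called with all arrays and 3, all higher, without the 3. Their obese response was called higher for 22 without the 3 arrays, against 0 with all arrays. Their diet difference in smoke was called higher for 10, against 0.

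**Figure D4:**
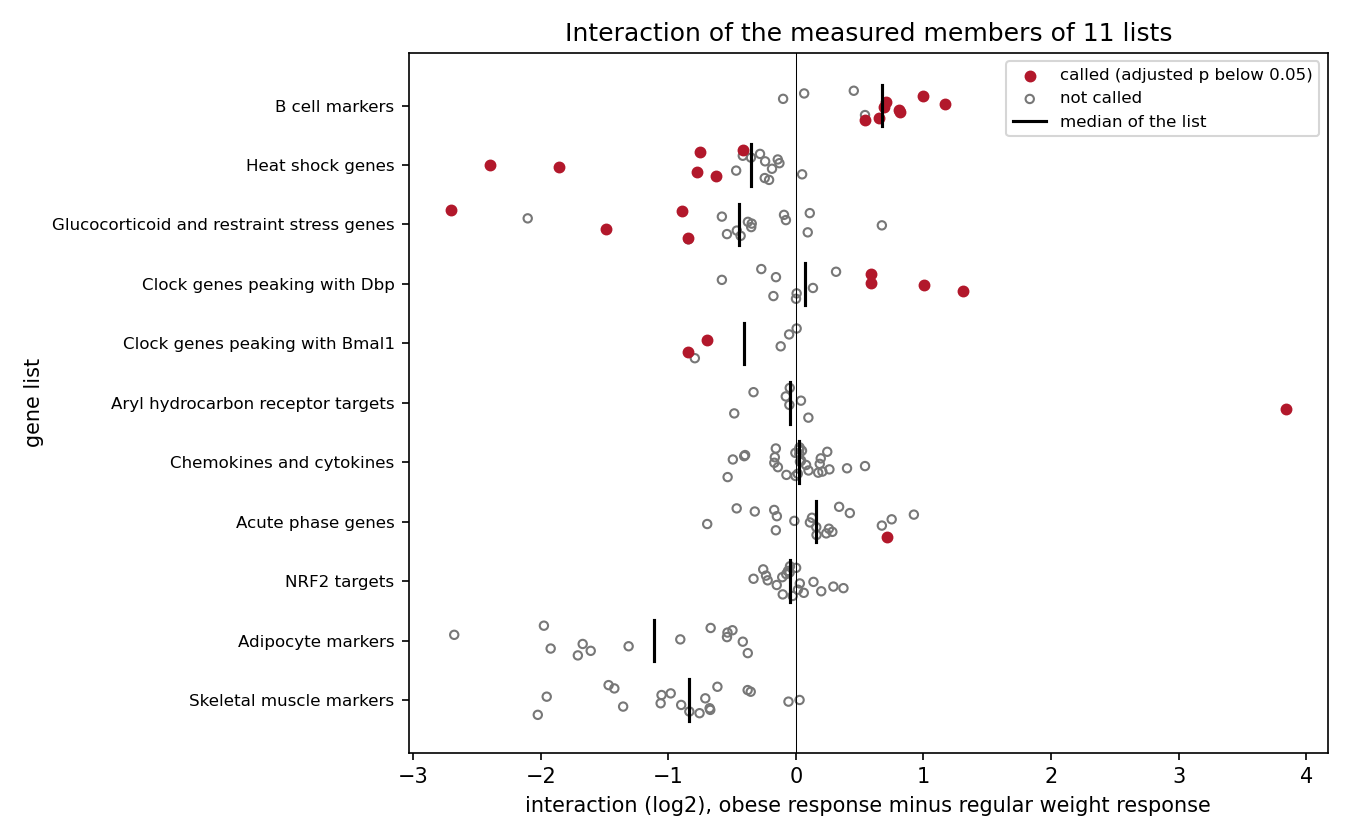
Interaction (log2, obese response minus regular weight response) of each measured member of 11 gene lists, with filled points for called members, open points for the others and a bar at the list median. The called B cell members lie right of 0 and the called heat shock and glucocorticoid members left of it, while adipocyte and skeletal muscle markers spread widely with no call.

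The mainstream arrays, which did not enter the interaction, offer the same diet contrast in another smoke. The diet difference in mainstream smoke was fitted on 16 arrays after the results above were seen, and 47 genes were called (0.379%). The arrays with the lowest mean correlations with their group were DIO-MS-1, at 0.981, and DIO-MS-6, at 0.983, against 0.990 or more for the others. Without both, 89 were called (0.718%), 10 of them among the 92. Of the 92 interacting genes 6 were called, 4 of them with the sign of the air difference. Among the 14 genes of the smoke class 3 were called, each with the sign it had in sidestream smoke, namely Nr1d1 at 0.97 (adjusted p = 3.1e-04), Cp at 0.67 (adjusted p = 0.0095) and Tfrc at 0.36 (adjusted p = 0.033). Dbp had 0.74 and was not called (adjusted p = 0.076). Without DIO-MS-1 and DIO-MS-6 the smoke class had 6 called, with Dbp at 0.93, Edn1 at 0.70 and Nr1d2 at 0.40 added (adjusted p = 0.010, 0.0084 and 0.010). Among the 66 genes of the air class 1 was called, Cd22 of B cells at -0.32 (adjusted p = 0.034). Hsph1 and Stip1, called in air and sidestream smoke, had 0.81 and 0.44 (adjusted p = 0.0073 and 0.023). Cyp1a1 averaged 8.36 ± 0.64 in DIO-MS and 8.89 ± 0.21 in RW-MS (SD, n = 8 each), a difference of -0.53 (adjusted p = 0.32).

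Other probe sets of the same genes gave a partly independent reading. The 92 genes had 65 other probe sets, belonging to 41 genes, and 64 had the sign of the gene's own interaction, 45 of them with an unadjusted p below 0.05. The remaining 1 had the opposite sign with a p above 0.05. Sizes differed more: 33 of the 65 lay within 1.5 times of the gene's interaction in either direction, 30 were smaller and 2 larger. The other probe set of Zbtb16 had -1.11 (adjusted p = 0.0025), against the -2.70 given above, while those of Hspa1b had -2.41 and -2.25. For Mbd1 the other probe sets ranged from -1.39 to -0.28, against -0.60, and Wnt5a had 0.94 against 0.52.

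**Figure D5:**
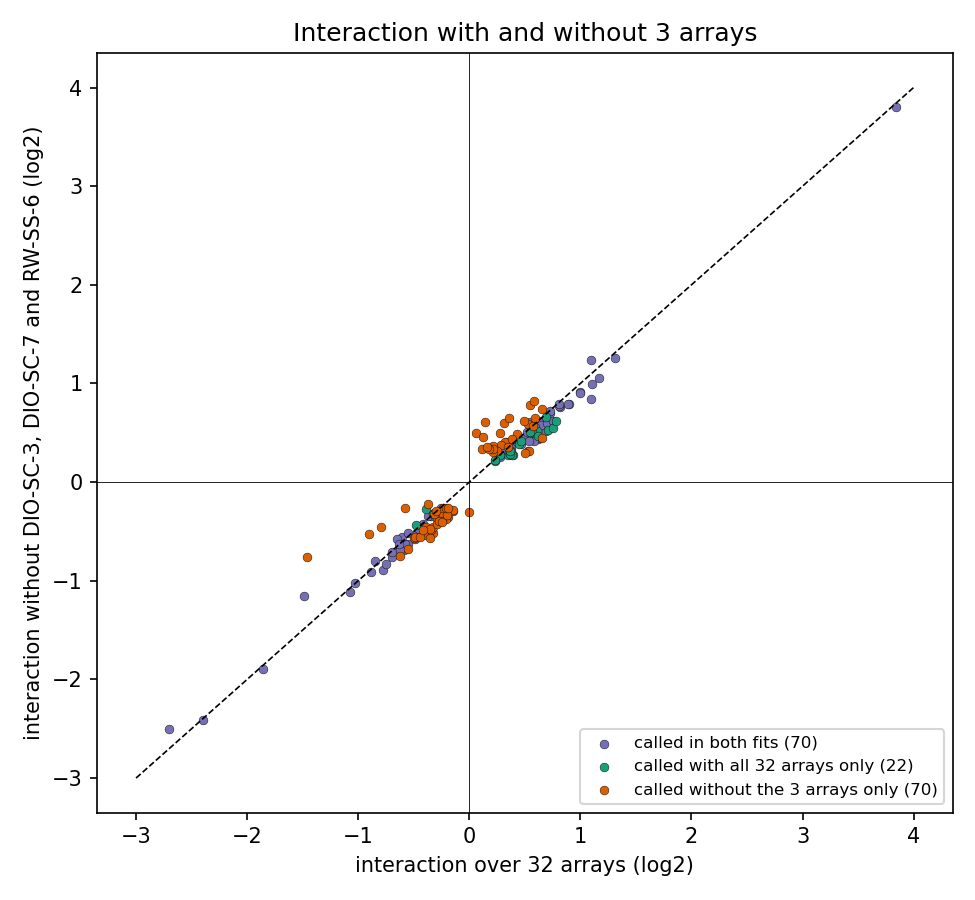
Interaction over all 32 arrays (horizontal, log2) against the interaction without DIO-SC-3, DIO-SC-7 and RW-SS-6 (vertical, log2) for genes called in either fit, with the dashed line marking equal values. The 70 genes called in both fits lie close to the line, including Cyp1a1 at 3.84 and 3.80; 22 were called with all arrays only and 70 without the 3 arrays only.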

How the data were processed

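Gene expression was measured in lungs with Affymetrix arrays. Per the submitters' processing notes, RMA gave the deposited log2 values, and its version is not given in the sources used here. RMA quantile normalizes arrays, so a shift shared by all genes cannot be seen. Of 22690 probe sets, those with 1 gene symbol were used, and the one with the highest mean over 48 arrays stood for each of 12393 genes. A limma model (version 3.58.1, in R 4.3.3) with 1 mean per group was fitted to 32 arrays with default eBayes moderation, and two-sided p-values were adjusted by Benjamini-Hochberg. The procedure was tested on simulated data. The fit on 16 mainstream arrays was added later. Members, gene lists and the 3 arrays left out together were chosen with earlier results of these data known. Named genes are the 10 largest interactions in each direction called with and without the 3 arrays, the 6 largest lost without them, the 6 largest per class, up to 6 called members per list (or the 2 with the lowest p), and Cyp1a1, Hspa1a, Hspa1b and Cirbp; others were picked after their values were seen. Groups came from the sample titles, and animals 7 and 8 of RW-SS and of RW-MS, which carry the numbers 5 and 6 in another label, counted as separate animals. No scan dates were used, so batches were not tested. The number of arrays limits the precision. Other settings tried were the fit over 48 arrays, centring, a further quantile normalization, filters on dim and on ambiguous probe sets, means over probe sets, trend with robust fitting, a replicate block and leaving out arrays.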

Additional observations from a re-analysis of the deposited data

Results flagged for a closer look

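The sidestream responses of the diets differed by the test of the difference itself for 92 genes. Where the obese response was the higher, the interactions were 3.84 for Cyp1a1, 1.31 for Dbp, 1.17 for Fcer2a, 1.11 for Ighv14-2, 1.10 for Retnla, 1.09 for Edn1, 1.001 for Nr1d1, 0.99 for Ms4a1, 0.89 for Ccr6 and 0.89 for Cxcr5. Where it was the lower, they were -2.70 for Zbtb16, -2.39 for Hspa1b, -1.85 for Hspa1a, -1.49 for Fkbp5, -1.07 for Klf15, -1.03 for Map3k6, -0.89 for Tsc22d3, -0.85 for Cdkn1a, -0.77 for Dnaja1 and -0.75 for Hsph1, all on the log2 scale.

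Single animals lay far from the others of their group for some of these genes by Dixon's test. RW-SS-8 had a Cyp1a1 signal of 10.14, the highest of its group, and RW-SC-6 had a Dbp signal of 11.15, the lowest of its group. DIO-SS-6 had the lowest Nr1d1 signal of its group, 8.21, and the highest Hspa1a signal, 8.93. The highest signals of their groups were also those of DIO-SC-7 for Fkbp5, 11.05, of RW-SC-1 for Klf15, 10.25, and of DIO-SS-1 for Hsph1, 10.69. Chance gives such a value in about 1 of 20 groups tested, and 7 of 84 groups tested were flagged.

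Among probe sets without exactly 1 gene symbol, which entered no comparison, 10 were called for the interaction, 7 higher and 3 lower.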

How the results depend on the processing

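No named gene's interaction changed sign under the alternatives run. The interaction median turned sign without the 3 arrays for 10 of 41 lists, among them T cell markers (-0.21, then 0.23) and cell cycle genes (-0.04, then 0.30). Without arrays DIO-SC-3, DIO-SC-7 and RW-SS-6, 140 genes were called for the interaction, 71 of them lower, and 333 for the diet difference in sidestream smoke and 577 for the regular weight response. The class of smoke differences then held 22 genes, that of both differences 16 and that of neither 3. Genes in neither class numbered 12 with each array centred on its median, 12 with a further quantile normalization and 10 without the dimmest genes, and by the larger of both differences 22 genes went to the smoke level. With 1 animal left out, the interaction was called for 65 to 184 genes (39 to 110 higher, 25 to 74 lower), and the count of 184, which includes all 92, was that without DIO-SC-7. The diet difference was then called for 718 to 1305 genes in air and 54 to 298 in smoke, the obese response for 562 to 966 and the regular weight response for 146 to 606. The highest smoke and regular weight counts came without DIO-SC-7, and the smoke count was also over 1.5 times away from 95 without RW-SS-8 (54), DIO-SS-7 (55), DIO-SS-4 (56), DIO-SS-1 (59), DIO-SS-5 (63) and RW-SS-2 (145), as was the lowest regular weight count, without RW-SC-3. The classes of air, smoke, both and neither held 44 to 126, 10 to 27, 4 to 16 and 3 to 15 genes. With the replicate number as a block, 70 genes were called, 68 of them among the 92, but the numbers did not pair the animals: deviations of same-numbered animals correlated at a median of 0.04 (range -0.32 to 0.48), against 0.01 for different numbers. Without DIO-MS-1 and DIO-MS-6, left out after the data were seen, the diet difference in mainstream smoke was called for 89 genes. DIO-SC-7 enters neither the diet difference in smoke nor the regular weight response. Without DIO-SC-7 those log2 differences therefore stay the same, and only their errors and p-values change. The cause of the other shifts was not tested. Dim signals limit small differences, and RMA could not be rerun.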
